A study of Homo sapiens with 2 samples.

Results

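The solute carrier (SLC) genes are the large group of membrane transporters that do not hydrolyze ATP themselves, and 33 genes with an SLC symbol stood in the rows used here of the lists of mRNAs that changed when SK-NEP-1 cells were exposed to LBH589. One of them, SLC9A3R1, encodes a regulator and no transporter. They were chosen by symbol: of the 1002 of 3162 rows of higher mRNA probes and the 952 of 3426 rows of lower ones used here, each probe whose gene symbol begins with SLC and a digit was taken, which gave 37 probes of 33 genes out of 1954 probes of 1741 named mRNA genes, on arrays with 58921 probes. Of these probes, 17 (15 genes) stood in the list of higher mRNAs and 20 (18 genes) in the list of lower mRNAs. The listing rests on the same 2 arrays that are described here. The direction of every member, and a change large enough to be listed, were therefore fixed by its choice. All values that follow are for this reason a description, with no test.

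SK-NEP-1 is an established human tumor cell line, which the study obtained and described as a kidney (Wilms tumor) line. That origin was not checked here. LBH589 (panobinostat) blocks histone deacetylases, which take acetyl groups off histones. One culture received 100 nM LBH589, the other received DMSO, the solvent of the drug, in equal volume, and RNA was taken at 24 h. Each condition was read on 1 Arraystar lncRNA array in 1 color (Cy3). Treatment cannot be told apart from culture, RNA preparation and labeling, the precision is limited by the number of arrays, and in bulk RNA fewer cells of a type and less RNA per cell cannot be told apart. Only genes that were listed as changed carry a name, so no marker list could be used to check the identity of the line.

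SLC proteins are sorted into numbered families by sequence, and a family usually shares a substrate or a way of coupling transport to an ion gradient. At the plasma membrane they bring in amino acids, sugars, vitamins and nucleosides and exchange protons, bicarbonate, phosphate and metals. The SLC25 family works in the mitochondrial inner membrane, and other members fill vesicles or empty lysosomes. In kidney epithelium, carriers of this kind carry out most of the uptake of filtered solutes.

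The RNA of each gene was read by probes of 60 bases, and 4 genes had 2 probes each. Sequences are given 5′ to 3′ in lower case for the SLC6A15 and SLC25A13 pairs, to show how far 2 probes of a gene overlap, and for the probes of the gene with the largest fall measured on both arrays (SLC38A5) and of one of the genes with a large rise (SLC51B). The capitals in the SLC6A15 pair mark the 44 bases that both probes hold. The first 16 bases of each are what separates the 2 probes, whose transcripts have the same outer limits (chr12:85253267-85306608, hg19, minus strand). The SLC25A13 pair shares no run longer than 6 bases, and the 2 transcripts it was designed for lie at chr7:95749532-95951459 (minus strand). The SLC38A5 transcript lies at chrX:48316927-48328644 (minus strand) and the SLC51B transcript at chr15:65337708-65345734 (plus strand).
SLC6A15, NM_182767: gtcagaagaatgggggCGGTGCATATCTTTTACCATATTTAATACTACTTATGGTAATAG
SLC6A15, NM_001146335: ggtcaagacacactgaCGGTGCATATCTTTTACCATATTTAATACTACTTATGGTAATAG
SLC25A13, NM_014251: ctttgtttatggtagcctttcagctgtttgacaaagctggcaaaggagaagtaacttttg
SLC25A13, NM_001160210: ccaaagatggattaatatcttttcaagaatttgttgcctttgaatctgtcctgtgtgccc
SLC38A5, NM_033518: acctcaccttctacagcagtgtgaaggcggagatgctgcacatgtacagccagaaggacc
SLC51B, NM_178859: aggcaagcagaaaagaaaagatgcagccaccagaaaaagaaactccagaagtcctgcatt

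The 2 probes of SLC46A3 share the run CTTCAGACAG and no longer one, and those of SLC4A8 share at most 6 bases. Among the 662 pairs of member probes from different genes, no run shared by 2 probes was longer than 9 bases. The probes of different solute carriers therefore had little sequence in common within this group, and binding of other RNAs to them was not tested.

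The arrays differed in brightness, and the 75th percentile of their processed signals was 189 with DMSO and 108 with LBH589. A processed signal is the brightness of a spot after subtraction of its background, in arbitrary units. Signals are given below as deposited, while a difference is the log2 signal minus the log2 of the 75th percentile of its own array, LBH589 minus DMSO. Where both signals are well above background, a fold is therefore smaller than their plain ratio for a gene that fell and larger for one that rose. The error beside a difference is the measurement error that the scanner software gives for the spots, in log2 units, and holds no variation between cultures. Of the 37 probes, 20 were bright enough on both arrays to be called well above background (9 listed as higher and 11 as lower). For the other 17 probes 1 array was too dim, and the difference is a lower bound of the size under this rule, with the dim side put at the faintest signal that the software still calls well above background (21.3 with DMSO and 14.5 with LBH589) or the dim signal itself where that was higher. Such values are written as "at least". They hold only for that floor: of the 600 spots of negative control probes, 90 (15.0%) were themselves called well above background with DMSO and 74 (12.3%) with LBH589, and the 95th percentile of these spots was 53.0 and 27.4. Of the 20 probes measured on both arrays, 13 exceeded that percentile on both. SLC51B, SLC23A2 and the NM_181785 probe of SLC46A3 did not with DMSO, nor SLC9B2, SLC19A1, SLC25A43 and SLC20A1 with LBH589. SLC43A1, SLC26A7, SLC25A18, SLC25A10, SLC39A2, SLC30A10 and the NM_001146335 probe of SLC6A15 exceeded it on neither array.

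At least a 2-fold change was reached by 14 probes that were higher and by 16 that were lower, against 12.3% of the 41574 probes well above background on either array that were at least 2-fold higher and 10.2% that were at least 2-fold lower. At 5-fold the counts were 8 and 7, and the shares of all these probes were 2.49% higher and 1.65% lower. Nothing is read from these shares, because the members were chosen by the same contrast. Without scaling of the arrays, the 5-fold counts were 3 higher and 16 lower. After normexp background correction they were 1 and 3, and those at 2-fold were 11 and 12, the probes of SLC17A7, SLC22A2, SLC20A1, SLC25A24 and SLC16A14, the NM_001039960 probe of SLC4A8 and the NM_182767 probe of SLC6A15 no longer reaching 2-fold. With the floor at the 95th percentile of the negative control spots, called the negative-control floor below, 30 probes had a value, 11 were at least 2-fold higher and 14 lower, and 6 each way reached 5-fold. Under that floor the exact values of 7 probes became bounds, of 9.25-fold for SLC51B, 6.96-fold for SLC23A2, 10.5-fold for the NM_181785 probe of SLC46A3, 5.56-fold for SLC9B2, 3.95-fold for SLC19A1, 3.997-fold for SLC25A43 and 2.64-fold for SLC20A1. The bounds of SLC4A8 were 4.41-fold and 1.83-fold, those of SLC18B1 and SLC25A13 were 5.43-fold and 5.12-fold, and those of SLC17A7, SLC22A2, SLC25A24 and SLC16A14 were 1.03-fold, 1.27-fold, 1.86-fold and 1.75-fold. In genes, 12 of the 15 higher and 15 of the 18 lower had a probe past 2-fold, and 7 probes had bounds under 2-fold. The median difference was 2.25 for the higher member probes and 2.22 for the other probes of that list, and it was -2.15 for the lower member probes and -2.27 for the other probes of theirs.

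**Figure D1:**
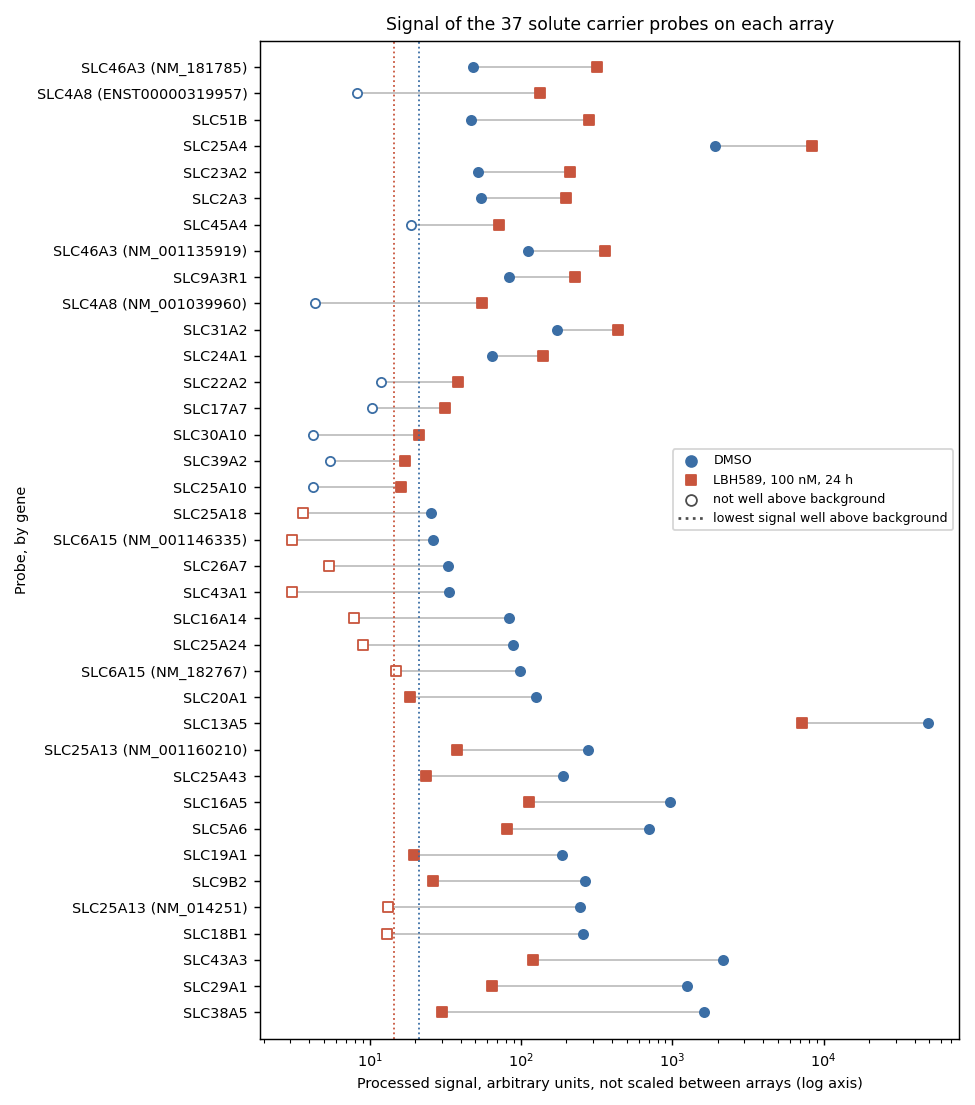
Processed signal (arbitrary units, log axis, not scaled between arrays) of the 37 solute carrier probes on the DMSO array (circles) and the LBH589 array (squares), in order of difference. Open symbols were not well above background and dotted lines mark the lowest signal that was (21.3 and 14.5); 17 probes have 1 open symbol, and the square lies to the left of the circle for the 20 lower probes and to its right for the 17 higher ones.

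Both carriers grouped under nucleosides and nucleobases were lower. SLC19A1, a folate carrier also described here, was grouped with the vitamin carriers, which went both ways. SLC29A1 is ENT1, which moves nucleosides across the plasma membrane in either direction. Its signal was 1258 with DMSO and 64.1 with LBH589, and it fell by 3.50 on the log2 scale (11.3-fold, error 0.22). SLC43A3, a carrier of purine nucleobases, read 2169 and 120 and fell by 3.37 (10.4-fold, error 0.21). Both probes were bright enough on either array, so neither value is a bound. SLC19A1, the reduced folate carrier that also takes up methotrexate, read 188 and 19.5 and fell by 2.47 (5.54-fold, error 0.33), or at least 3.95-fold at the negative-control floor, and the difference was -1.23 after normexp. Its LBH589 signal lay close to the lowest signal well above background, and its error was the highest of the 20 probes measured on both arrays.

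The other vitamin carriers went different ways. SLC5A6, the sodium-dependent carrier of biotin and pantothenate, read 698 with DMSO and 80.9 with LBH589, and it fell by 2.31 (4.96-fold, error 0.21). SLC23A2 is SVCT2, the sodium-dependent carrier of ascorbate in most cells. It read 52.3 and 212 and rose by 2.82 (7.05-fold, error 0.24). Of the 3 vitamin carriers, 2 were thus lower and 1 was higher.

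Among the amino acid carriers stood the largest difference of the 20 member probes measured on both arrays. SLC38A5 is SNAT5, which carries glutamine, histidine and related amino acids together with sodium in exchange for protons. Its signal was 1626 with DMSO and 30.1 with LBH589, 31.1-fold lower, or -4.96 on the log2 scale (error 0.26). Over all processing alternatives its difference ranged from -5.76 to -3.65. SLC6A15, a sodium-dependent carrier of branched-chain amino acids and proline, was read by the overlapping pair shown above. The NM_182767 probe read 98.7 and 15.0, at least 3.77-fold lower, or at least 2.07-fold at the negative-control floor, and the NM_001146335 probe read 26.3 and 3.06. The second of these gives a bound of only 1.04-fold, since 26.3 is close to the dimmest signal that counts as well above background. Both probes were dim on the LBH589 array, so the 2 bounds do not show that the transcripts differed in response.

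SLC43A1 is LAT3, a sodium-independent carrier of branched-chain amino acids. Its signals were 33.7 and 3.09, a bound of 1.34-fold lower, which does not reach 2-fold. SLC17A7 is VGLUT1, which loads glutamate into synaptic vesicles, and it was the only amino acid carrier listed as higher. It read 10.4 with DMSO, too dim to measure, and 31.5 with LBH589, and rose at least 2.57-fold. At the negative-control floor its bound was 1.03-fold, and after normexp its difference was 0.48.

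Both genes grouped under sugars in the rows used here were higher. SLC2A3 is GLUT3, a glucose transporter of neurons and many tumor cells. It read 54.9 with DMSO and 200.1 with LBH589 and rose by 2.67 (6.34-fold, error 0.23). SLC45A4, a member of a family of proton-coupled sugar carriers, read 18.9 and 71.3 and rose at least 5.82-fold, or at least 2.34-fold at the negative-control floor, and the difference was 1.06 after normexp. The DMSO signal of SLC45A4 was not well above background, while both signals of SLC2A3 were.

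All 3 genes grouped under carboxylates were lower, the SLC16 genes being placed there by their family. The mitochondrial dicarboxylate carrier SLC25A10, listed as higher, is described among the mitochondrial carriers. SLC13A5 is the sodium-dependent citrate transporter of the plasma membrane. It read 48742 with DMSO and 7178 with LBH589 and fell by 1.96 (3.90-fold, error 0.20), and neither signal was saturated. SLC16A5, a monocarboxylate transporter family member also named MCT6, read 969 and 113 and fell by 2.31 (4.94-fold, error 0.21). SLC16A14, a member of the same family, read 83.7 and 7.91 and fell at least 3.31-fold. At the negative-control floor its bound was 1.75-fold, and after normexp its difference was -0.82. Both SLC16 genes moved the same way as SLC13A5.

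The carriers of organic cations, steroids and polyamines were split. SLC51B is the beta subunit of the organic solute transporter, which exports bile acids and steroid conjugates together with SLC51A. Its signal was 46.5 with DMSO and 282 with LBH589, and it rose by 3.40 (10.5-fold, error 0.24), or at least 9.25-fold at the negative-control floor. SLC22A2 is OCT2, an organic cation transporter of the kidney tubule. It read 11.98 and 38.6 and rose at least 3.15-fold from a DMSO signal that was not well above background. At the negative-control floor its bound was 1.27-fold, and after normexp its difference was 0.68. SLC18B1, a vesicular polyamine transporter, read 259 and 13.0 and fell at least 10.2-fold, its LBH589 signal being too dim to measure. SLC51B and SLC18B1 thus moved in opposite directions, and their sizes depended on the background: after normexp the differences were 1.97 and -1.50.

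SLC46A3, a lysosomal membrane protein that exports steroid conjugates and the breakdown products of some antibody-drug conjugates, was higher by both of its probes. Its NM_181785 probe read 48.0 and 320 and rose by 3.54 (11.6-fold, error 0.24). The NM_001135919 probe read 111 and 358 and rose by 2.49 (5.64-fold, error 0.21). The 2 transcripts have the same outer limits (chr13:29274218-29293150, minus strand), and the differences of their probes lay 1.04 apart on the log2 scale. After normexp the differences were 2.28 and 1.82, and no replicate array gives the spread against which that gap could be judged.

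The metal carriers were all listed as higher, and 1 of 3 passed 2-fold. SLC31A2 is CTR2, a copper transporter of intracellular membranes. It read 174 with DMSO and 436 with LBH589 and rose by 2.13 (4.36-fold, error 0.21). SLC30A10, which exports manganese, read 4.25 and 21.3, a bound of 1.74-fold. SLC39A2 is ZIP2, a zinc importer, and it read 5.47 and 17.1, a bound of 1.39-fold. Neither of the last pair was well above background with DMSO, and both lay under the 95th percentile of the negative control spots on both arrays.

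Carriers of ions, acid and base included the pair of SLC4A8 probes. SLC4A8 is a sodium-driven chloride and bicarbonate exchanger that raises the pH inside the cell. Its ENST00000319957 probe read 8.24 and 134 and rose at least 10.97-fold, and its NM_001039960 probe read 4.39 and 55.6 and rose at least 4.54-fold. At the negative-control floor these bounds were 4.41-fold and 1.83-fold, and after normexp the differences were 1.57 and 0.88. Neither DMSO signal was well above background, while both LBH589 signals were. SLC24A1 is NCKX1, which exchanges sodium for calcium and potassium in rod photoreceptors. It read 64.8 and 139 and rose by 1.90 (3.74-fold, error 0.23), the smallest rise of the 9 higher probes measured on both arrays. SLC9A3R1 carries an SLC symbol but is no carrier: its product is NHERF1, a scaffold that holds the sodium and proton exchanger NHE3 and other proteins at the membrane. It read 83.3 and 228 and rose by 2.25 (4.76-fold, error 0.22).

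Lower in the same class were a proton exchanger and a phosphate carrier. SLC9B2 is NHA2, which exchanges sodium or lithium for protons. Its signals were 265 and 26.1, and it fell by 2.54 (5.84-fold, error 0.27). SLC20A1 is PiT1, the sodium-dependent phosphate carrier that also serves as a receptor for gibbon ape leukemia virus. It read 126 and 18.6 and fell by 1.96 (3.90-fold, error 0.32), or at least 2.64-fold at the negative-control floor, and the difference was -0.96 after normexp. SLC26A7, an anion exchanger of kidney and stomach, read 32.9 and 5.39, a bound of 1.30-fold. In this class 3 of 6 genes passed 2-fold upward, the regulator SLC9A3R1 being 1 of these 3, and 2 downward.

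The mitochondrial carriers formed the largest family, with 6 genes and 7 probes. SLC25A4 is ANT1, the ADP/ATP exchanger of heart and skeletal muscle. It read 1906 with DMSO and 8456 with LBH589 and rose by 2.95 (7.72-fold, error 0.20). SLC25A10, the dicarboxylate carrier, read 4.25 and 16.0, a bound of 1.31-fold higher. That bound leaves a larger rise possible, and with the dim signal itself the difference was 2.72.

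The other 4 mitochondrial carriers were lower. SLC25A13 is citrin, the aspartate and glutamate carrier of the malate-aspartate shuttle. Its NM_014251 probe read 244 and 13.2 and fell at least 9.67-fold, and its NM_001160210 probe read 277 and 37.7 and fell by 2.08 (4.23-fold, error 0.24). These 2 probes had similar DMSO signals but only the second was well above background with LBH589. SLC25A43, a carrier whose substrate is not settled, read 191 and 23.6 and fell by 2.22 (4.65-fold, error 0.28). SLC25A24, which exchanges ATP with magnesium for phosphate, read 88.9 and 9.07 and fell at least 3.52-fold. At the negative-control floor its bound was 1.86-fold, and after normexp its difference was -0.75. SLC25A18, a glutamate carrier, read 25.5 and 3.64, a bound of 1.01-fold, which sets hardly any limit on the size of its fall. Its signals, too, both lay under that percentile of the negative control spots. Thus 3 of the 4 passed 2-fold downward, although SLC25A24 did not at the negative-control floor or after normexp.

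**Figure D2:**
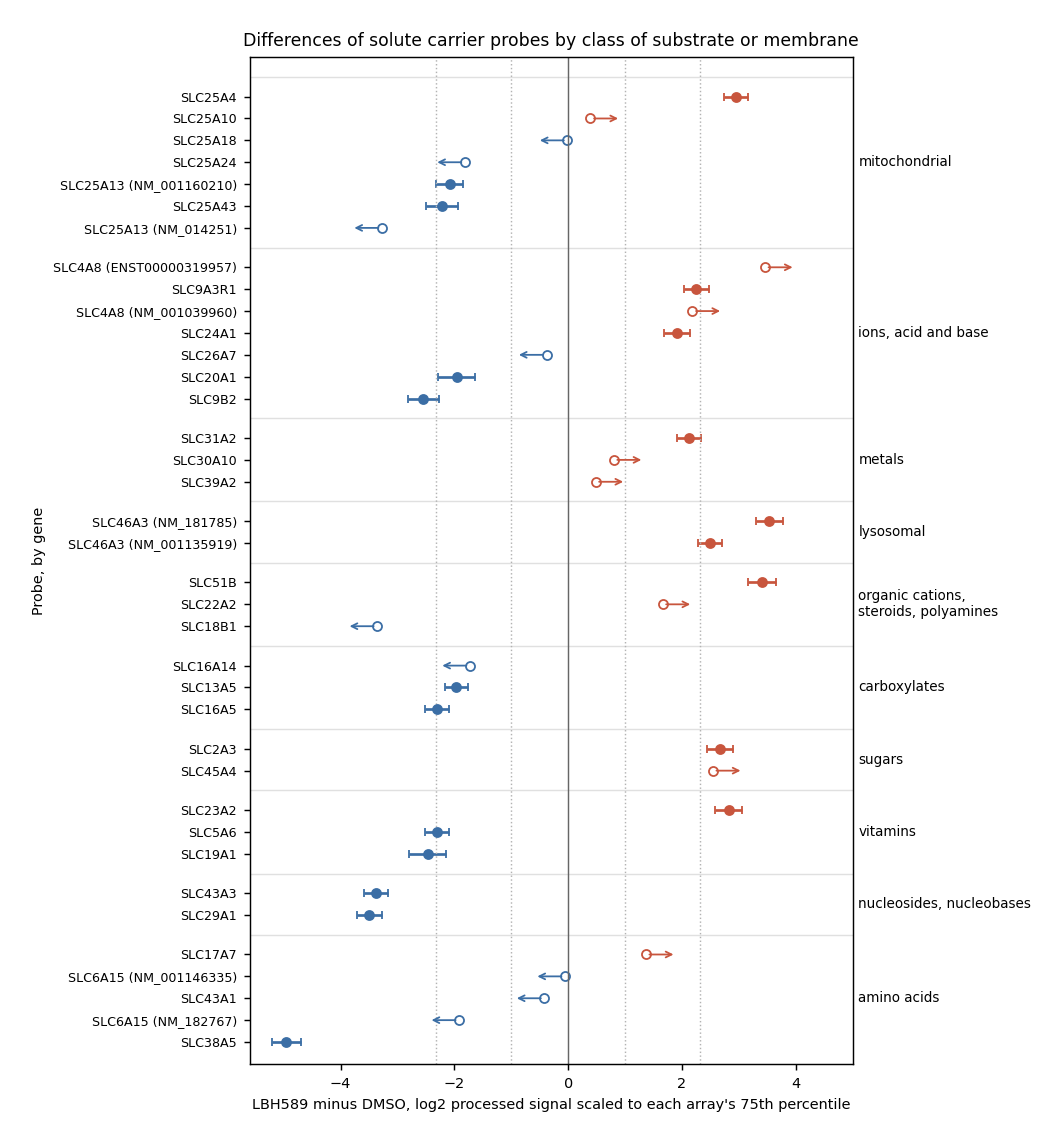
Difference of LBH589 minus DMSO (log2 processed signal scaled to the 75th percentile of each array) of every solute carrier probe, grouped by substrate or membrane. Filled points are probes well above background on both arrays, with the measurement error of the spots as bars, open points with arrows are lower bounds of the size, and dotted lines mark 2-fold and 5-fold; both nucleoside and nucleobase carriers and all 3 carriers grouped under carboxylates lie to the left of 0 and both sugar carriers to the right.

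The members came from 25 numbered families, and without the regulator SLC9A3R1, 3 families had more than 1 gene. Both SLC16 genes were past 2-fold lower, but SLC16A14 was not at the negative-control floor (1.75-fold) or after normexp (-0.82). Of the 2 SLC43 genes, both listed as lower, SLC43A3 passed 2-fold and SLC43A1 gave a bound under it. SLC25 had 2 genes listed as higher, 1 of them past 2-fold, and 4 as lower, 3 of them past 2-fold. SLC25A24, 1 of these 3, did not pass 2-fold at the negative-control floor or after normexp. The smallest differences of member probes measured on both arrays were 1.90 (SLC24A1) and -1.96 (SLC20A1), and those of the other probes in the lists were 1.82 and -1.85. The lists continue below this size, and solute carriers in the rows not used were not analysed here.

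Other transport genes from the same lists were also examined, by the symbols of ABC transporters, ion pumps, ion channels, aquaporins, metallothioneins, other solute transporters and kinases that act on ion transporters. They were 37 genes with 40 probes, of which 26 probes were at least 2-fold higher and 6 at least 2-fold lower, with a median of 1.93. At the negative-control floor 18 were at least 2-fold higher and 6 lower. The shares given above for the 41574 probes well above background on either array apply here too. These genes were listed for the same contrast. The 5 metallothionein genes, small proteins that bind zinc and copper, were all higher, with differences from 2.11 to 4.34. MT1G read 1353 with DMSO and 15722 with LBH589 and rose 20.2-fold, though metallothionein genes are near-identical and their probes may read one another's RNA.

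Among potassium channels, 7 of 9 probes were at least 2-fold higher and 2 at least 2-fold lower. At the negative-control floor KCNA4 (1.93-fold) and the NM_170775 probe of KCNN2 (1.67-fold) no longer reached 2-fold. After normexp that KCNN2 probe (0.83), KCNA4 (0.67), KCNH2 (0.77), KCNN3 (0.93) and KCNQ5 (-0.90) were under 2-fold. KCNMB4, a beta subunit of the calcium-activated BK channel, read 211 and 875 and rose 7.22-fold. KCNE3, a small subunit that alters the gating of KCNQ channels, read 391 and 22.3 and fell 10.1-fold, or at least 8.202-fold at the negative-control floor. KCNMB4 and KCNE3 were named for having the largest difference each way among the potassium channel probes measured on both arrays.

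Of the 6 probes with an ABC family symbol, 2 were at least 2-fold higher (ABCB11 and ABCF2) and none at least 2-fold lower. The genes were taken by symbol, and transport by each product was not checked. ABCB11, the bile salt export pump, read 34.4 and 155 and rose 7.81-fold, or at least 5.08-fold at the negative-control floor. Among chloride channels and exchangers, CLCN6, an endosomal chloride and proton exchanger, read 593 and 50.6 and fell 6.74-fold, and among aquaporins, AQP10 read 1006 and 2430 and rose 4.20-fold.

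The remaining lists were small. CNNM2, which takes part in magnesium handling, read 110 and 290 and rose 4.59-fold, and STEAP2, a metal reductase, read 281 and 33.6 and fell 4.81-fold. SGK1, a kinase that raises the activity of sodium transporters, rose 4.38-fold by 1 probe and, from 106 to 222, 3.64-fold by the other. The 3 probes of ATP-driven ion pumps and the 2 of sodium and cation channels were all bounds. At least 2-fold higher were 1 pump probe (ATP1B1) and 1 cation channel probe (SCN1A), but neither was under the other backgrounds. At the negative-control floor ATP1B1 had a bound of 1.61-fold and SCN1A had none, and after normexp their differences were 0.81 and 0.61.

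Long noncoding RNAs listed as changed were annotated at solute carrier genes by 23 probes of 20 lncRNAs. They were annotated at 19 solute carrier genes, of which 3 were members. Of the probes, 14 were at least 2-fold higher and 4 at least 2-fold lower, and 10 could be measured on both arrays. Of the 41574 probes well above background on either array, 12.3% were at least 2-fold higher and 10.2% at least 2-fold lower. Nothing is read from the counts, since the lncRNA probes, too, were listed for this contrast. At the negative-control floor 10 were at least 2-fold higher and 4 lower. After normexp AC004019.13, CTD-2651B20.3, RP11-10J21.4, RP4-799P18.3, SLC26A4-AS1 and the ENST00000427354 probe of AC007254.3 no longer reached 2-fold, with differences from 0.57 to 0.87.

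At member genes, an lncRNA moved against its gene at SLC6A15. XLOC_009819, which the array annotates as a natural antisense RNA, starts on the plus strand 47 or 51 bases from the start of SLC6A15, pointing away from it. Its probes read 63.0 and 232 and 71.4 and 232, and rose 6.39-fold and 5.64-fold, while the NM_182767 probe of SLC6A15 fell at least 3.77-fold, or at least 2.07-fold at the negative-control floor. AC004019.13, antisense to SLC25A18 (overlap of 9036 bases, chromosome 22), read 13.7 and 53.8 and rose at least 4.40-fold (1.77-fold at that floor), while SLC25A18 gave only the bound of 1.01-fold. RP11-10J21.4, annotated on the same strand in an intron of SLC45A4 but lying 23712 bases outside the SLC45A4 transcript measured here, read 20.0 and 52.4 and rose at least 4.28-fold, or 1.72-fold at that floor, beside the rise of SLC45A4.

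At other solute carriers, whose own mRNA has no named probe here, lncRNAs changed in both directions. RP11-31F15.1 and BX648855, antisense to the lactate transporter gene SLC16A1, read 503 and 22.1 and 370 and 19.4, and fell 13.1-fold and 10.96-fold, or at least 10.6-fold and 7.75-fold at the negative-control floor. These 2 lie on the same stretch (chr1:113499142-113511020 and chr1:113499071-113511603, plus strand) and may be the same RNA. SLC7A11-AS1, antisense to the gene of the cystine and glutamate exchanger, read 4.25 and 111 and rose at least 9.05-fold, or 3.64-fold at that floor.

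BC013821, antisense to SLC9A3, the gene of the exchanger NHE3, read 225 and 1365 and rose 10.5-fold. RP11-85F14.5, intronic and antisense at SLC35G2, rose 10.5-fold by 1 probe (269 and 1624), while its other probe (4.25 and 16.2) gave a bound of 1.32-fold. AC121336.2, annotated as overlapping exon sequence of SLC2A13 on the same strand, read 163 and 735 and rose 7.86-fold. All of these lncRNAs except SLC7A11-AS1 and the dimmer RP11-85F14.5 probe were measured well above background on both arrays. Whether the AC121336.2 probe also reads SLC2A13 mRNA was not tested.

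RP11-465L10.10, antisense to the potassium and chloride cotransporter gene SLC12A5, read 42.1 and 157 and rose 6.50-fold, or at least 5.17-fold at the negative-control floor. The natural antisense RNA listed at SLC2A1, the gene of the glucose transporter GLUT1, read 80.3 and 181 and rose 3.91-fold, and CTD-2651B20.3 at SLC28A2 read 28.5 and 68.7 and rose 4.19-fold (at least 2.25-fold at the negative-control floor). Both AC007254.3 probes at SLC8A1 were bounds, at least 3.33-fold and 5.64-fold higher, or 1.34-fold and 2.27-fold at that floor. RP4-799P18.3 at SLC35F3 and SLC26A4-AS1 at SLC26A4 were at least 5.04-fold and 2.34-fold higher (2.03-fold and no bound at that floor). AX746677, annotated on the same strand in an intron of SLC19A3, had a bound of 1.41-fold.

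RP11-654G14.1, annotated on the same strand in an intron of SLC30A8, was lower. It read 193 and 24.3 (4.57-fold, or at least 4.04-fold at the negative-control floor). Also lower was RP3-436N22.3 at SLC9C2, which read 120 and 10.3 (at least 4.75-fold, or 2.51-fold at that floor). HMGN2P46, antisense to SLC30A4, had bounds of 1.25-fold and 1.14-fold, and RP11-448G15.1 at SLC2A9 gave no bound. In all, lncRNAs at these genes were measured in both directions.

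Within 100 kb of a member on hg19, 10 members had at least 1 other listed mRNA gene, in 13 pairs of genes. Both genes of a pair were past 2-fold in 10 pairs, the same way in 4 and opposite ways in 6, as the listing fixed. Fewer pairs qualified at the negative-control floor, where SLC17A7 and SLC16A14 had bounds of only 1.03-fold and 1.75-fold. After normexp these members (0.48 and -0.82) and the neighbours DYNC1I1 (0.78 and 0.82) and GALNT6 (-0.83) were under 2-fold. Of the 41574 probes well above background on either array, 12.3% were at least 2-fold higher and 10.2% lower. SLC43A3 (chr11:57174427-57195053) and SLC43A1 (chr11:57252004-57283192) lie on the minus strand 56951 bases apart, and SSRP1, a histone chaperone subunit gene 71076 bases from SLC43A3, read 19093 and 2611 and fell 4.20-fold. SLC5A6 (chr2:27422455-27435175) overlaps ATRAID on the other strand by 277 bases, and ATRAID read 621 and 85.6 and fell 4.17-fold. SLC43A3, SSRP1, SLC5A6 and ATRAID thus fell past 2-fold, while SLC43A1 gave only its bound of 1.34-fold.

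Other neighbours of SLC5A6 were higher, namely CGREF1 (138 and 287, 3.62-fold) and UCN, which encodes urocortin (508 and 1186, 4.06-fold). SLC51B rose 10.5-fold (at least 9.25-fold at the negative-control floor) while CLPX, a mitochondrial protease subunit 97050 bases away, read 908 and 104 and fell 5.03-fold. At SLC25A13, which was lower, the dynein intermediate chain gene DYNC1I1 had 2 probes that rose 4.37-fold and 4.44-fold from dim DMSO signals of 23.2 and 25.8, or at least 1.92-fold and 2.16-fold at the negative-control floor. The genes near members thus did not share 1 direction.

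Of the rest, GALNT6 near SLC4A8 read 110 and 16.0 and fell 3.96-fold (at least 2.31-fold at the negative-control floor), and EPRS near SLC30A10 read 2513 and 336 and fell 4.30-fold. At SLC17A7, PTH2 rose 9.005-fold (186 and 963) and FCGRT fell 5.04-fold (1255 and 143). SP110 near SLC16A14 was at least 6.37-fold lower (3.37-fold at that floor), and NBPF4 near SLC25A24 had a bound of 1.58-fold higher. Listed lncRNAs near members, beside those annotated at them, were AL133493.2 near SLC19A1 (4.40-fold and 10.8-fold higher by 2 probes), FAM225B near SLC31A2 (4.66-fold higher) and BC051808 near SLC25A24 (at least 3.96-fold higher, or 1.59-fold at that floor).

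**Figure D3:**
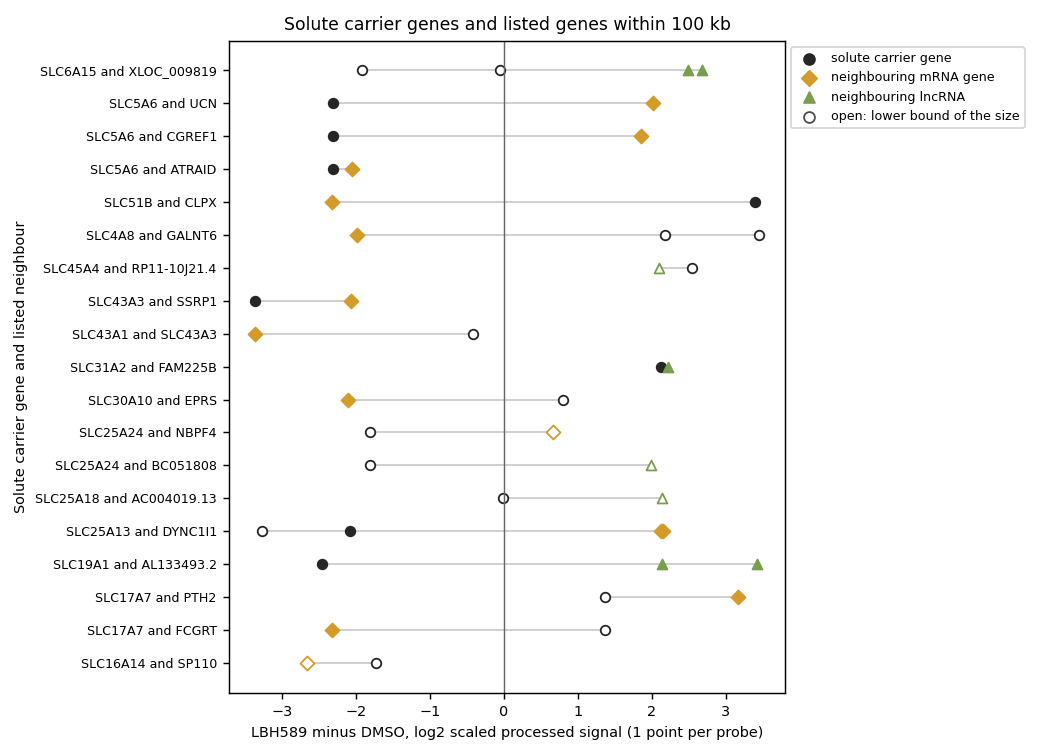
Difference of LBH589 minus DMSO (log2 scaled processed signal, 1 point per probe) of solute carrier genes (circles) and of listed mRNA genes (diamonds) and lncRNAs (triangles) within 100 kb of them. Open symbols are lower bounds of the size; SLC5A6 lies beside ATRAID on the lower side with UCN and CGREF1 on the higher, and SLC51B and CLPX lie on opposite sides of 0.

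The differences of the 20 probes measured on both arrays kept their sign under every processing alternative run, while their sizes moved. With the floor at the 95th percentile of negative control spots 7 of them became bounds. The kept sign is no check, since the direction of these probes was fixed by the listing. Nor is it one for the 17 bounds, since a bound that would change sign has no value. Without scaling 34 of the 37 probes had a value (SLC25A10, SLC30A10 and SLC39A2 had none). With the percentile over probes bright on both arrays 35 had one (SLC25A18 and the NM_001146335 probe of SLC6A15 had none). At the floor set by negative control spots 30 had a value. SLC4A8 had one of the widest ranges, from 1.57 to 4.83 for its ENST00000319957 probe, and SLC13A5 one of the narrowest, from -2.76 to -1.89. SLC29A1 ranged from -4.29 to -2.77 and SLC51B from 1.97 to 3.55.

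**Figure D4:**
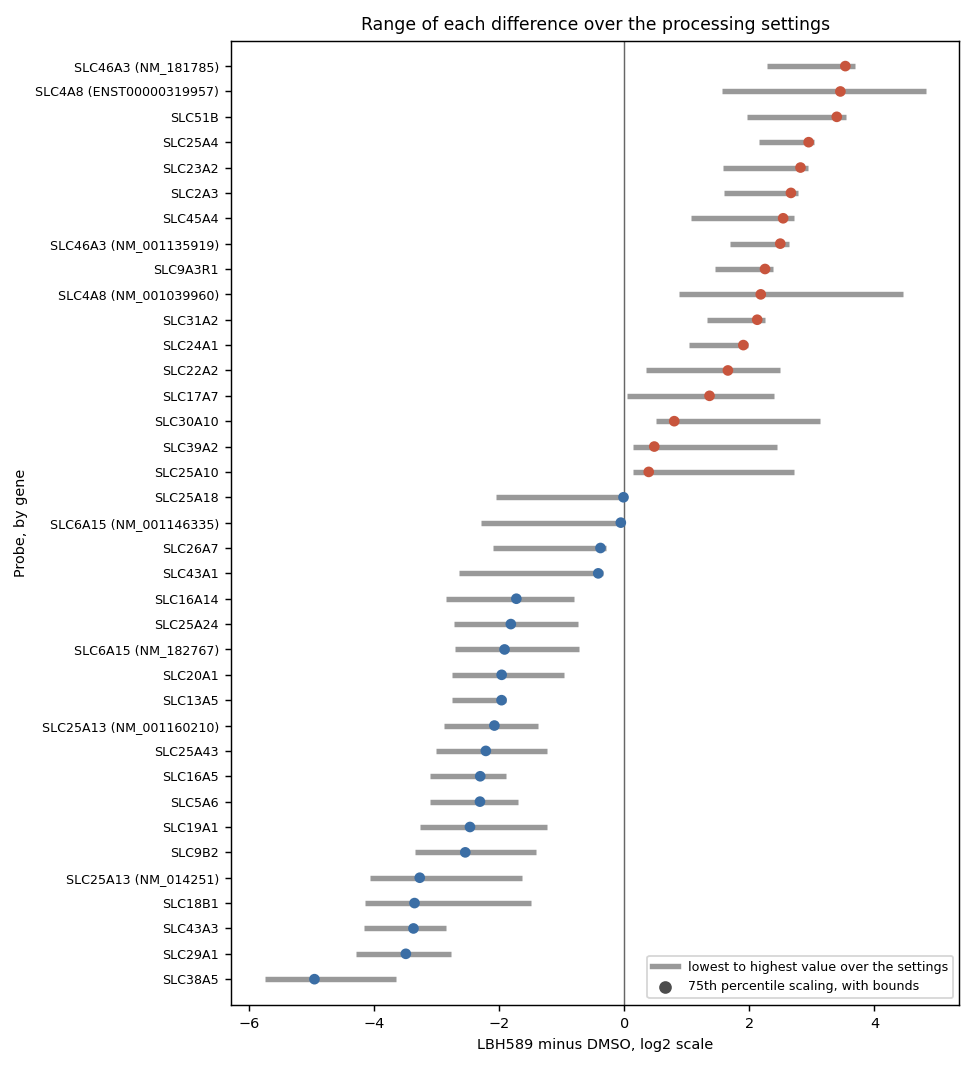
Lowest to highest difference of each solute carrier probe (log2, LBH589 minus DMSO) over the processing settings (gray bars), with the value used in the text (points). Settings in which a bound would change sign have no value, so the bar of a bound cannot cross 0; bar lengths differ, from 1.57 to 4.83 for the ENST00000319957 probe of SLC4A8 against -2.76 to -1.89 for SLC13A5.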

How the data were processed

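RNA of 2 cultures was measured on 1 array each. Per the file headers, spots were read with Agilent Feature Extraction 11.0.1.1 (the submitters' processing notes name 10.7.3.1). The deposited intensity of a spot is its processed signal with background subtracted, not normalized between arrays, and the deposited quality flags are scores of 0 or 1. The authors also deposited processed log2 values, normalized between arrays by a method not given in the sources used here.

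From the intensities, control spots and 62 spots marked as outliers on either array were left out, log2 signals were averaged per probe, and each array was set against its 75th percentile over 58921 probes (Python 3.11.15, numpy 2.4.6, pandas 2.3.3). With DMSO 66.0% and with LBH589 63.3% of probes were well above background, which is the precision limit for dim probes, and none was saturated. Across 20 probes with repeated spots the median SD was 0.070 and 0.068 log2. The 34619 probes bright enough on both arrays had a median difference of -0.035. Genes were called changed at 2-fold or 5-fold, with no test, since each group has 1 array. Calculations were tested on simulated data. Normexp used limma 3.58.1 (R 4.3.3).

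Gene names, hg19 positions and probe sequences come from the annotation columns of the study's lists of changed transcripts, whose value columns, fold changes among them, were not used. All solute carrier genes in the rows used (1002 of 3162 of higher and 952 of 3426 of lower mRNA probes) are named, as are lncRNAs and genes in the rows used at or within 100 kb of them (1 lncRNA, at SLC2A1, only by its gene) and, of each other transport list, the probe measured on both arrays with the largest difference each way. SLC38A5, SLC51B and the probe pairs were chosen for their sequences after their values were seen. Members and lists were chosen with earlier results of these data known. A planned search of promoters was void, since 25 of 33 genes (75.8%) had an entry, and proteins were not compared.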

Additional observations from a re-analysis of the deposited data

How the results depend on the processing

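The 20 differences measured on both arrays kept their sign under every alternative run, which is no check, since the listing fixed their direction. Bounds that would change sign have no value, so their sign is no check either. Of 37 probes, 34 had a value without scaling and 35 with the percentile over bright probes. With the floor at the 95th percentile of negative control spots 30 had one. Under quantile normalization, a 75th percentile taken over probes bright on both arrays, and with outlier spots kept, the counts at 2-fold and 5-fold stayed within 1.5 times and the medians moved by less than the measurement error. Without scaling the median of all probes was -0.84 (main -0.037), 3 probes were 5-fold higher and 16 lower, and the medians were 1.72 for higher and -2.95 for lower members. Normexp on median pixel signals with an offset of 50, chosen after seeing the data, left 11 probes 2-fold higher and 12 lower, and 1 probe 5-fold higher and 3 lower, with medians of 1.54 and -1.32. That floor, also chosen after seeing the data, gave 11 probes 2-fold higher and 14 lower. With the deposited processed values 13 probes were 5-fold lower and the medians were 2.64 and -2.41. With the dim signal itself in place of the bound 14 were 5-fold higher, with medians of 2.71 and -2.39. Probes well above background on both arrays alone gave 9 that were 2-fold higher and a median of 2.67, because fewer probes entered. The cause of the other shifts was not tested. Normexp on mean signals was not run, as the files used hold median pixel signals. No paired analysis was possible because each condition has 1 array. Signal over background limits 17 of the 37 differences to bounds.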
